A study of Mus musculus with 4 samples.

Results

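Mature Ccr7 positive dendritic cells made up 124 of the 36286 liver CD45+ cells kept for analysis (0.342%, exact 95% binomial interval 0.284 to 0.407%). They were selected on their own measured values, in UMIs (unique molecular identifiers, each standing for 1 counted RNA molecule): at least 1 UMI of Ccr7, at least 3 of Fscn1 and Ccl22 together, at least 5 of H2-Ab1, and 0 of Siglech, Cd79a, Cd3d, Cd3e and Cd3g. Kept cells had 600 to 6000 genes and at most 5% mitochondrial UMIs, which left 36286 of 39121 cells. High Ccr7, Fscn1, Ccl22 and H2-Ab1 in these cells is therefore how they were chosen and is given only as a description.

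Dendritic cells take up antigen in a tissue, and on activation a part of them switches to a mature state in which uptake declines and Ccr7 appears, the receptor that guides the cells along gradients of the chemokines Ccl19 and Ccl21 into lymphatic vessels and lymph nodes. Mature cells carry costimulatory ligands for T cells together with ligands that restrain them, such as Cd274 (PD-L1), and those of the type 1 lineage are a known source of interleukin 12, whose p40 subunit is encoded by Il12b. The microRNA miR-146a is induced by NF-kB and represses Traf6 and Irak1, adaptors that lead from Toll-like and interleukin 1 receptors to NF-kB, while Ccl5 is a chemokine that draws T cells, natural killer cells and myeloid cells.

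The cells came from 4 libraries of CD45+ liver cells, sorted by flow cytometry and profiled with the 10x Genomics 5' v2 chemistry, 1 library for each of 4 groups of female C57BL/6 mice. Young WT mice were about 8 weeks old and untreated. The 3 other groups were 36 weeks old and DEN-CDHFD treated: 25 mg/kg of diethylnitrosamine (DEN, a liver carcinogen) was injected intraperitoneally at 14 days, and the mice were weaned at 21 days onto a high-fat, choline-deficient diet (CDHFD) that produces fatty liver disease. These were WT, miR-146a-/- and double knockout mice lacking both miR-146a and Ccl5 (DKO, miR-146a-/- Ccl5-/-), the deletions being carried in all tissues and not in dendritic cells alone. With 1 library per group, and the number of mice behind each not given in the sources used here, the spread between mice could not be measured, and no difference between groups was tested. All intervals cover counting error only. Age and treatment differ together between young WT and DEN-CDHFD WT, so their effects cannot be told apart in that comparison.

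Depth was similar across libraries. The young WT library held 90756272 UMIs in 10985 cells, DEN-CDHFD WT 103165826 in 9120, DEN-CDHFD miR-146a-/- 88706063 in 8393 and DEN-CDHFD DKO 103147246 in 10623. Mature Ccr7 positive cells were deeper than the average kept cell: their median was 18570 UMIs in young WT and 18390, 20758 and 17965 in treated WT, miR-146a-/- and DKO, against 6782, 8210, 7910 and 7558 for all kept cells. No doublet caller was run. Of the 124 cells, 6 had a barcode that was also a kept cell in another library (0 in young WT and 2 in each treated library), and any pair of libraries shared 96 to 127 barcodes among kept cells.

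Ccl5, the gene deleted in the DKO, was examined first as a check of the labels. In mature Ccr7 positive cells its level was 3171 CPM (UMIs of the summed cells, scaled to the same total in each library) in young WT, 3204 in DEN-CDHFD WT, 999.7 in miR-146a-/- and 16.0 in DKO, from 577, 3160, 554 and 11 UMIs. In young WT 62.6% of them lay in 1 cell, the one that also held macrophage genes, and the log2 ratio of WT to young WT was 0.01, 0.97 without the cells that held over 90% of a named gene and 1.25 with cells holding UMIs of other lineages left out. The DKO value stands apart from the rest, at a log2 ratio to miR-146a-/- of -5.90 (-6.98 to -5.12), as the label requires. The remaining DKO level was alike in every population examined: 16.0 CPM in mature cells, 16.9 in type 1 and 15.7 in type 2 conventional dendritic cells (cDC1 and cDC2), and 15.9 in B cells. After each cell was thinned to 3000 UMIs, 0 of 38 mature DKO cells had a Ccl5 UMI, a share whose limit at that depth, by the 3 counts used here for a 0, is 7.89%. Unthinned, 23.7% of them did, against 11.4% of DKO B cells, whose median depth was 6939 UMIs and not 17965. Deletion of miR-146a was not checked, since the matrices hold no row for the microRNA.

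The mature microRNA is shown because the miR-146a-/- and DKO libraries lack it and its seed defines the sites searched for in the genes reported as its targets. It lies at chr11:43374435-43374456 on the minus strand (GRCm38.p6, RefSeq), and capitals mark the seed, bases 2 to 8.
mmu-miR-146a-5p: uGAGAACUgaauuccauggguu

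The DNA letters complementary to the seed, AGTTCTC, were searched for on the coding strand of the longest annotated 3' UTR of each gene (GENCODE M21). Of 20997 genes, 2344 (11.2%) held at least 1 match. Of 8 genes reported as miR-146a targets, 5 did: Traf6 held 4, Irak1 and Irak2 2 each, and Notch1 and Smad4 1 each, while Relb and Ccl5 had 0 in UTRs of 336 and 199 bases. A match describes letters only and says nothing of whether the site is used. The first 2 in Traf6, at chr2:101697945-101697966 and chr2:101698009-101698030 on the plus strand, and both in Irak1, at chrX:74015393-74015414 and chrX:74015377-74015398 on the minus strand (GRCm38), are given with the match in capitals.
Traf6 site 1: ccgctctggtgttgAGTTCTCa
Traf6 site 2: ccctggaaggcttaAGTTCTCa
Irak1 site 1: gactcagaggtcaaAGTTCTCa
Irak1 site 2: ttctcatgcttggaAGTTCTCa

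Mature Ccr7 positive cells were rarest in the young liver. They were 10 of 10283 kept cells in young WT (0.0973%, 0.0466 to 0.179%), 50 of 8329 in DEN-CDHFD WT (0.600%, 0.446 to 0.791%), 26 of 7824 in miR-146a-/- (0.332%, 0.217 to 0.487%) and 38 of 9850 in DKO (0.386%, 0.273 to 0.529%). DEN-CDHFD WT exceeded young WT by 0.503 percentage points (Newcombe interval 0.337 to 0.698), a ratio of 6.17 (3.09 to 13.7). The miR-146a-/- share was 0.554 times that of WT (0.331 to 0.906), a difference of -0.268 points (-0.486 to -0.0566). That difference was -0.155 (-0.338 to 0.0196) with the rule applied after thinning and -0.0875 (-0.230 to 0.0505) with cells holding UMIs of other lineages left out, and both of these intervals hold 0. DKO and miR-146a-/- differed by 0.0535 points with an interval on both sides of 0 (-0.133 to 0.231), so no difference was detectable between them at this depth.

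Against other gated dendritic cells the young liver was again lowest. cDC1 were gated as kept cells outside the mature set with at least 2 UMIs of Xcr1 and Clec9a together, and cDC2 as those with at least 2 of Cd209a and 0 of Xcr1 and Clec9a, both with the same H2-Ab1, Siglech, Cd79a and Cd3 limits. There were 156, 113, 78 and 126 cDC1 and 31, 60, 79 and 137 cDC2 in young WT, WT, miR-146a-/- and DKO. Mature cells were 5.08% (2.46 to 9.14%) of members, cDC1 and cDC2 together in young WT, 22.4% (17.1 to 28.5%) in DEN-CDHFD WT, 14.2% (9.50 to 20.1%) in miR-146a-/- and 12.6% (9.09 to 16.9%) in DKO. On this denominator DKO was lower than miR-146a-/- by a difference of -1.58 points (-8.25 to 4.47), the opposite sign to that among all kept cells, and both intervals hold 0.

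**Figure D1:**
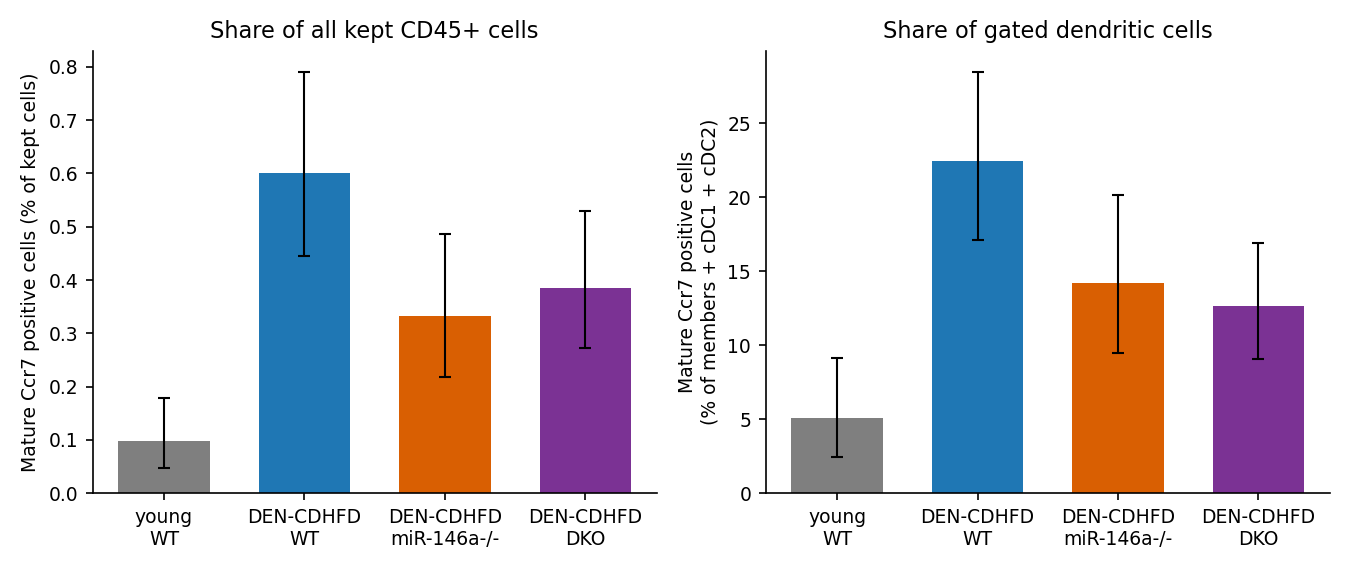
Share of mature Ccr7 positive cells in each library, as a percent of all kept CD45+ cells (left) and of members, cDC1 and cDC2 together (right), with exact 95% binomial intervals that cover counting error only. Young WT is lowest on both axes (0.0973% and 5.08%) and DEN-CDHFD WT highest (0.600% and 22.4%).

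The genes of the rule varied widely from cell to cell. Ccr7 (ENSMUSG00000037944, chr11:99144196-99155077, GRCm38) had a median of 14 UMIs per cell in young WT, 33 in DEN-CDHFD WT, 21.5 in miR-146a-/- and 14.5 in DKO, with cells from 1 to 194, and 96 of 124 cells held 10 or more. Fscn1 (ENSMUSG00000029581, chr5:142960343-142973185), which bundles actin in the processes of mature dendritic cells, had medians of 3, 16.5, 2.5 and 14.5 and reached 343. Ccl22 (ENSMUSG00000031779, chr8:94745590-94751699), a ligand of Ccr4 on regulatory and type 2 helper T cells, had medians of 5.5, 7, 15 and 5 and reached 182. Fscn1 and Ccl22 did not always come together: 66 of the 124 cells had UMIs of both, 23 of Fscn1 alone and 35 of Ccl22 alone.

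Summed over the cells of each library, Ccr7 stood at 1786 CPM in young WT, 2621 in DEN-CDHFD WT, 1666 in miR-146a-/- and 1569 in DKO. Fscn1 was at 539, 1829, 931 and 1859 CPM in the same order, so that WT and DKO were high and young WT and miR-146a-/- low. Ccl22 was at 610.0, 1044, 1122 and 714 CPM and H2-Ab1 at 5929, 5184, 6357 and 6643 CPM.

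Of the cells that had Ccr7, the threshold on Fscn1 and Ccl22 removed most. Of kept cells, 2277, 1480, 839 and 1068 had Ccr7, which B and T cells also express, and the requirement on Fscn1 and Ccl22 took these to 29, 94, 51 and 60, the other limits to 10, 50, 26 and 38. Just inside it, 13 members had exactly 3 UMIs of Fscn1 and Ccl22 and stood at 750.0 CPM of Ccr7 and 14.2 of Il12b, against 2038 and 1100.0 CPM over all members. Just outside, 7 cells failed only because the sum was 2, and stood at 446 CPM of Ccr7 and 232 of Il12b. Of cells that met all other limits, 79 had fewer than 3 UMIs of Fscn1 and Ccl22 together, 59 lacked Ccr7 and 21 had fewer than 5 H2-Ab1 UMIs. Another 41 had a Cd3 UMI, 20 had a Cd79a UMI and 2 had a Siglech UMI. The 21 cells low in H2-Ab1 held 4771 CPM of Ccr7 and 745 of Il12b, and the 6 members with 5 to 9 H2-Ab1 UMIs held 5123 and 449.7. Cells with Cd3 that met all else were 7, 22, 6 and 6 by library, and those with Cd79a 0, 2, 12 and 6. In number of cells the Cd3 limit thus took most from WT and the Cd79a limit most from miR-146a-/-. As a share the Cd3 limit took more from young WT, where the last step went from 17 cells to 10, than from WT, from 72 to 50. With neither limit the cells would number 21, 77, 45 and 52.

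Il12b (ENSMUSG00000004296, chr11:44400063-44414033) was the marker gene that the rule did not use. It was detected in 50 of the 124 cells: 1 of 10 in young WT (10.0%, 0.253 to 44.5%), 22 of 50 in DEN-CDHFD WT (44.0%, 30.0 to 58.8%), 16 of 26 in miR-146a-/- (61.5%, 40.6 to 79.8%) and 11 of 38 in DKO (28.9%, 15.4 to 45.9%). Its level was 473 CPM in young WT, all from 1 cell, 1028 in DEN-CDHFD WT, 1418 in miR-146a-/- and 1114 in DKO, and cells reached 86, 240, 253 and 234 UMIs. Most cells of young WT, WT and DKO were thus at 0, while most of miR-146a-/- were positive, with a median of 6.5 UMIs over all 26 cells, and 36 of the 124 cells held 10 or more. With each cell thinned to 3000 UMIs the shares were 10.0, 30.0, 61.5 and 23.7%, and in B cells 0 of 2791, where the limit of 3 counts is 0.107%.

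**Figure D2:**
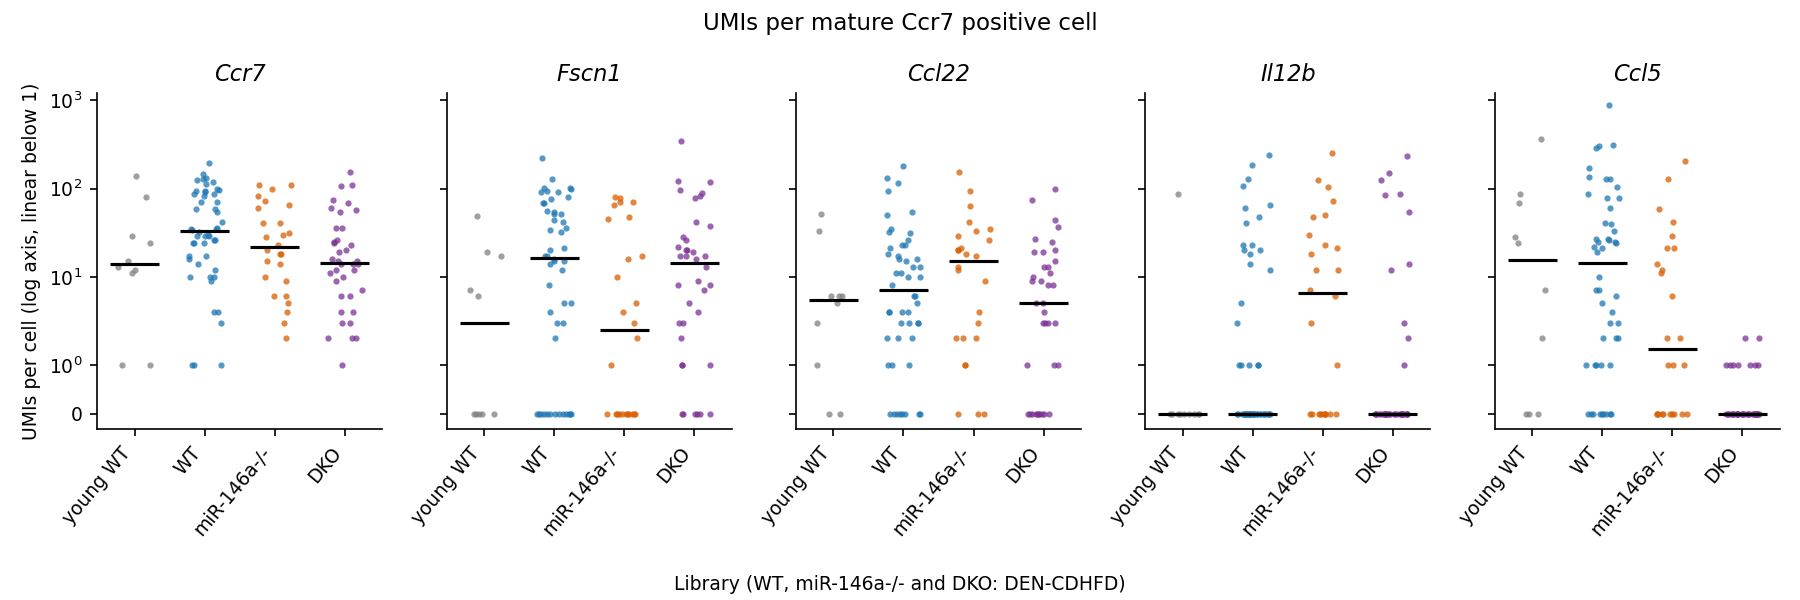
UMIs per cell of Ccr7, Fscn1, Ccl22, Il12b and Ccl5 in the 124 mature Ccr7 positive cells on a log axis that is linear below 1, with 1 point per cell spread sideways at random and the library median as a bar. Il12b is at 0 in 74 cells and reaches 253 UMIs, and DKO cells reach no more than 2 UMIs of Ccl5.

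Background from free RNA was read in B cells (at least 2 UMIs of Cd79a, at least 1 of Ms4a1 and 0 of Cd3), which should lack most genes of mature dendritic cells. Their median depths were 5715, 7051, 7183 and 6939 UMIs by library, against 17965 to 20758 in mature cells, and 65 of 2856 were left out for holding under 3000. At 3000 UMIs per cell, Ccl22 was found in 55.6% of mature cells and 0.0717% of B cells, Fscn1 in 60.5% and 1.36%, Socs2 in 52.4% and 0.967%, Cacnb3 in 58.9% and 0.0717%, and Cxcl16 in 87.9% and 0.430%. The same shares without thinning were 81.5% and 0.140%, 71.8% and 3.89%, 77.4% and 1.96%, 81.5% and 0.0700%, and 97.6% and 1.23%. The shares of Ccl22 and Fscn1 in mature cells are set by the rule. Socs2, Cacnb3 and Cxcl16, which it did not use, were far above the background share. Ccl5 was at 70.0, 64.0 and 38.5% of mature cells and 14.7, 18.9 and 6.80% of B cells in young WT, WT and miR-146a-/-, the libraries that carry the gene (70.0, 82.0 and 61.5% and 26.1, 36.2 and 16.8% unthinned). Cd274, a gene that B cells also express, was at 60.5% and 22.6% (87.1% and 39.6% unthinned).

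The cells were then set beside cDC1 and cDC2 of the same libraries. The rule selects for the contrast between mature and other dendritic cells, so this is a description, and nothing is read from the counts. At least 2-fold higher than in cDC1 in 4 of 4 libraries were 333 of 3372 genes (9.88%) and lower 289 (8.57%), and against cDC2 280 of 3493 were higher (8.02%) and 384 lower (11%). The prior of 0.5 counts lets a gene at 0 on both sides pass in the smaller mature libraries: on CPM with no prior 327, 289, 277 and 384 remain, and of the genes in the lists only Ccl24 is lost.

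NF-kB genes, whose alternative branch drives dendritic cell maturation, are given first. Of 18 measured, 14 were higher than in cDC1 in 4 of 4 libraries and 0 lower, and 9 were higher than in cDC2 and 1 (Nfkb1) lower. Relb, the transcription factor of the alternative branch, was at 747, 793, 713 and 911 CPM in mature cells of the 4 libraries and at 54.0 in cDC1 and 110 in cDC2. Traf1, an adaptor of tumor necrosis factor receptors, was at 1220, 955, 1029 and 893 CPM and at 84.8 and 250.0 in cDC1 and cDC2. The libraries hardly differed in either gene, and every one of them exceeded both other populations.

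Of the genes of migration and the cytoskeleton other than those of the rule, 8 of 10 were higher than in cDC1 and 8 of 10 higher than in cDC2. Marcksl1, an actin-binding substrate of protein kinase C, was at 1192, 1194, 1218 and 1124 CPM against 65.1 in cDC1 and 186 in cDC2. Cacnb3, the beta subunit of voltage-gated calcium channels, was at 324, 443, 473 and 336 CPM against 1.66 in cDC1 and 0 in cDC2. Cxcl16, the membrane-bound ligand of Cxcr6 on T and natural killer T cells, was the chemokine higher than in both populations in 4 of 4 libraries, at 813, 889, 783 and 975 CPM against 145 in each.

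Stimulatory and restraining genes were examined side by side. Of 8 measured costimulation genes, 7 were higher than in cDC1 and 4 higher than in cDC2. Cd40, through which T cells license dendritic cells, was at 335, 226, 549 and 343 CPM against 37.3 and 79.3. Cd86 did not follow: it was at 221 CPM in mature cells, 249 in cDC1 and 109 in cDC2. Of the regulatory list, 7 of 9 were higher than in cDC1 and 7 of 10 than in cDC2, where Socs3 and Tgfb1 were lower. Cd274 was at 489, 353, 220.2 and 407 CPM in the mature cells against 28.3 and 62.9. Il4i1, a secreted enzyme that degrades phenylalanine and tryptophan and restrains T cells, was at 1116, 794, 1209 and 1065 CPM against 11.6 and 67.1. Socs2, an inhibitor of cytokine signalling, was at 401, 319, 282 and 324 CPM against 3.88 and 1.82, whereas Ido1, Il12a and Il23a had 0 UMIs in the 124 cells.

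Of the survival genes, 8 of 11 were higher against cDC1 and 6 of 11 against cDC2. Bcl2a1b, a Bcl2 family member under NF-kB control, was at 1363, 1403, 2097 and 1331 CPM against 145 in cDC1 and 165 in cDC2. Serpinb9, an inhibitor of granzyme B, was at 407, 413, 440.3 and 387 CPM against 35.5 and 10.6.

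Class II antigen presentation was divided. Of 13 genes measured, 1 was higher than in cDC1 (H2-Eb2) and 3 lower (H2-DMa, H2-DMb1 and March1), and against cDC2 Cd1d1 joined H2-Eb2 on the higher side. H2-Eb2 was at 231, 390.3, 273 and 451 CPM against 8.04 and 22.1. H2-DMa, a chain of the H2-M complex that exchanges peptides on class II, was at 242, 196, 224 and 279 CPM against 767 and 757. March1, a ubiquitin ligase that removes class II from the surface, was at 16.5, 15.2, 7.22 and 13.1 CPM, from 12 cells, against 180.0 in cDC1 and 173 in cDC2.

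Genes of proliferation and of the conventional lineages complete the description. In the cell cycle list 4 of 7 genes were lower than in cDC1 and 7 of 8 lower than in cDC2, with Mki67, a marker of cycling cells, at 37.3 CPM against 122 and 173. Of the cDC1 genes outside the gate, 5 of 7 were lower than in cDC1: Naaa, a lysosomal amidase, was at 176, 21.3, 16.2 and 30.5 CPM against 987, and Irf8, the factor that specifies the lineage, at 665, 265, 206 and 313 against 1565. Of the cDC2 genes, 4 of 5 were lower than in cDC2. Sirpa was at 136 CPM in mature cells, 50.3 in cDC1 and 287 in cDC2. Toll-like receptor genes of cDC1, Tlr3, Tlr11 and Tlr12, were lower in 4 of 4 libraries, with 2 UMIs of Tlr3 in all 124 cells.

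**Figure D3:**
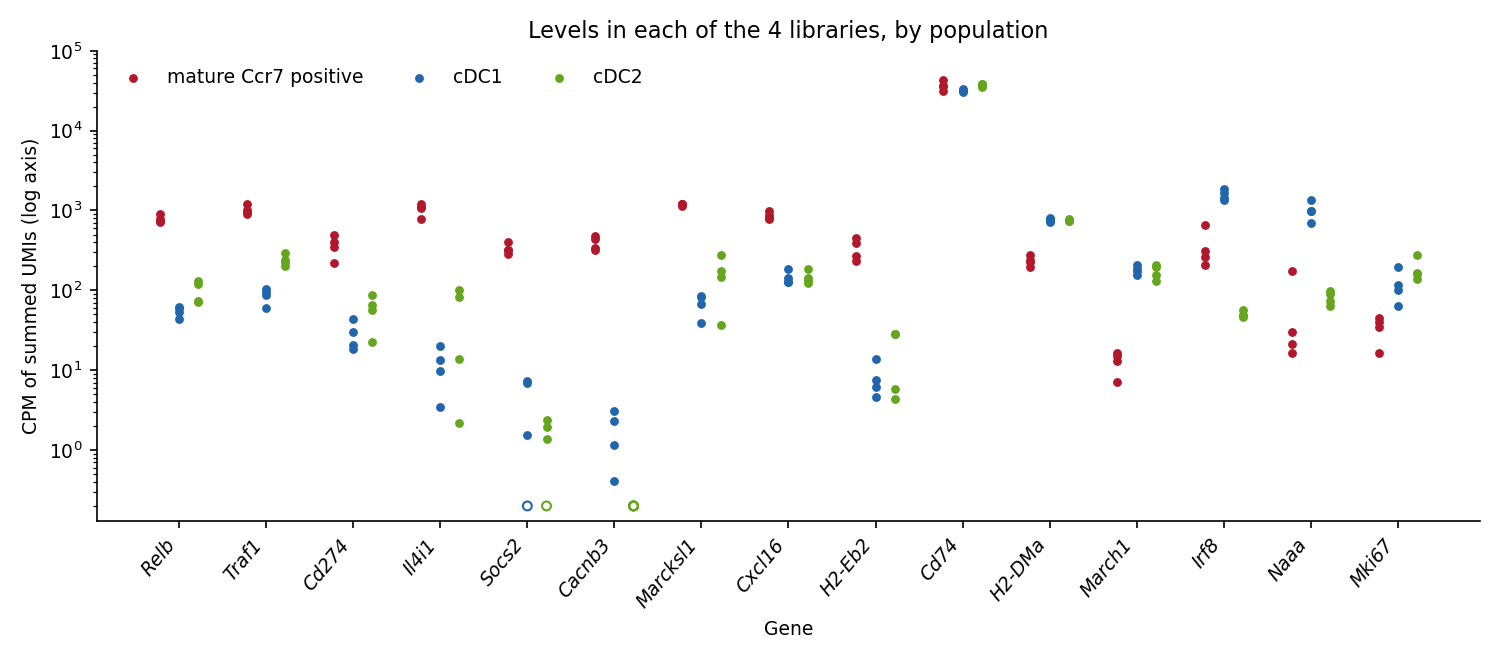
Summed level of 15 genes in CPM (log axis) in mature Ccr7 positive cells, cDC1 and cDC2, with 1 point per library and open points at the bottom for a level of 0. Relb to H2-Eb2 are higher in mature cells in each library (Cacnb3 at 410.4 CPM pooled, 1.66 in cDC1 and 0 in cDC2), and March1 is lower (12.9 against 180.0 and 173).

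The genes with the largest excess over cDC1 and cDC2 pooled included Nudt17, a hydrolase of the nudix family, at 148, 293, 226 and 237 CPM in mature cells and at 0.258, 0.577, 0.295 and 0.180 in the others, a 744-fold difference with a prior of 0.5 counts. The next were Cacnb3 (362-fold), Tnfrsf4, which encodes the costimulatory receptor OX40 (328-fold), and Il12b (318-fold). Adcy6, an adenylate cyclase, Lad1, an anchoring filament protein, Apol7c, an apolipoprotein L family member, Socs2, Pakap and Papss2 followed at 304, 192, 105, 98.9, 75.6 and 70.0-fold. Apol7c was at 1127, 254, 610 and 825 CPM, lowest in DEN-CDHFD WT, and was found in 58 of the 124 cells.

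At the other end, Unc119, Rab7b, P2ry6, Tifab, Tm6sf1, Mctp1, Itgae, Naaa and March1 were 11.7 to 23.6-fold lower. Itgae, the alpha chain of CD103, was at 9.96 CPM in mature cells and 118 in the others, and Mctp1, a calcium-binding membrane protein, at 19.5 and 243. S100a9, a neutrophil gene, ranked first at 29.0-fold, but it was at 332 CPM in DKO cDC1 and cDC2 and at no more than 4.13 in those of the other libraries, so its rank rests on 1 library.

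The Il12b positive and negative cells were compared after their Il12b values had been seen, and the genes named here were chosen likewise. The 50 positive cells had a median of 22596 UMIs and the 74 negative cells 16708, so levels are given as CPM. Serpinb9 was at 695 CPM in positive and 160 in negative cells (log2 ratio 2.12), the related inhibitor Serpinb6b at 895 and 208 (2.10), the interferon-inducible gene Epsti1 at 1934 and 442 (2.13), and Cst3, the protease inhibitor cystatin C, at 26070 and 11640 (1.16). Each of these was higher in the positive cells of all 3 treated libraries. Of the rule genes, Ccr7, Fscn1 and Ccl22 went the same way when pooled and H2-Ab1 the other way, with Ccr7 at 2757 and 1401 CPM (0.98), Ccl22 at 1307 and 605 (1.11) and Fscn1 at 2184 and 957 (1.19), the last by only 0.02 in miR-146a-/- (937 and 921 CPM).

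Lineage genes were mixed, and those of cDC2 too. Sirpa, a receptor typical of cDC2 and macrophages, was at 25.6 CPM in positive and 234 in negative cells (log2 ratio -3.17), and it had a UMI in 17 of 50 positive and 57 of 74 negative cells even though the positive cells were deeper. Irf4, a factor of cDC2, went the other way when pooled, at 31.8 and 16.4 CPM (0.94), by treated library at -0.35, 3.88 and 2.21. Irf8 was at 379 and 221 CPM (0.78), and UMIs of Xcr1 or Clec9a, the receptors that mark cDC1, were found in 34 of 50 positive and 15 of 74 negative cells, a count that favours the deeper positive cells. As levels the cDC1 genes did not share a direction. By treated library (WT, miR-146a-/- and DKO) the log2 ratio was 0.97, 2.88 and 1.62 for Irf8, 1.20, 1.29 and 0.43 for Xcr1 and 0.72, 0.04 and 0.07 for Batf3, another factor of the lineage, higher in positive cells of each, and -5.53, -3.27 and -2.15 for Naaa, lower in each. It was 0.24, 1.98 and -0.34 for Clec9a, -0.48, 0.96 and -0.95 for Cadm1 and -1.29, 1.99 and -0.24 for Wdfy4, with no shared sign. Naaa had 3 UMIs in all positive cells and 0 in those of WT, and Irf4 had 0 in the negative cells of miR-146a-/-. The sizes of -5.53 and 3.88 thus rest on the prior. Interleukin 15, encoded by Il15 and presented to natural killer and memory T cells, was at 107 and 39.2 CPM (1.44). H2-Ab1 was at 4243 and 7419 CPM (-0.81), Ciita, the master regulator of class II genes, at 86.5 and 234 (-1.43), Tmem176b, an ion channel of immature dendritic cells, at 610.0 and 1298 (-1.09) and Gpr183, the receptor for oxysterols, at 187 and 350.0 (-0.90), each lower in the positive cells of all 3 treated libraries. The share with a UMI of Xcr1 or Clec9a was 30.0% in young WT (3 of 10), 38.0% in DEN-CDHFD WT (19 of 50), 61.5% in miR-146a-/- (16 of 26) and 28.9% in DKO (11 of 38), the same order of the treated libraries as for Il12b. Cells with Il12b without Xcr1 and Clec9a numbered 0, 10, 2 and 4.

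Ccl17 was found in few cells. This second ligand of Ccr4 (ENSMUSG00000031780, chr8:94810453-94812036) was found in 16 of 124 cells, of which 5 also had Il12b, and stood at 26.5 CPM in Il12b positive and 182 in negative cells when pooled, but at 25.8 and 9.74 in miR-146a-/-. Its level was 379 CPM in young WT, 144 in DEN-CDHFD WT, 19.9 in miR-146a-/- and 58.2 in DKO, from 3, 8, 2 and 3 cells, and 1 cell held 75.4, 78.2, 81.8 and 45.0% of the UMIs.

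In the comparison of DEN-CDHFD WT with young WT, which asks how the diseased, older liver differs from the young one, the marker genes Fscn1 and Il12b were higher, at log2 ratios of 1.76 and 1.11, though Fscn1 is a gene of the rule and the young Il12b UMIs lay in 1 cell. Il12b was at 0.71, below 2-fold, without the cells that held over 90% of a named gene. It was at 7.89 with cells holding UMIs of other lineages left out. The 1 young cell with Il12b is then out too, so this value rests on the prior and gives no size of the difference. A gene was counted when either library gave it 50 CPM or more from 20 UMIs or more, which held for 2664, with a median log2 ratio of 0.09. Of these 186 were at least 2-fold higher (6.98%) and 91 lower (3.42%), read against only 10 young cells. The balance depends on the settings: 36 were higher and 123 lower with a prior of 5 counts, 964 and 1312 at 10 CPM with no UMI minimum, and 22 and 41 at 200 CPM, against 128 and 48 after thinning, 452 and 88 with cells holding UMIs of other lineages left out, and 274 and 71 without the cells that held over 90% of a named gene. In the NF-kB list 1 of 18 was higher (Rela, 38.5 and 119 CPM) and 0 lower, with a median of 0.04. Class II had 0 higher and 1 lower (H2-Ob) of 13 at a median of -0.05, class I 0 and 1 (Nlrc5) of 14 at 0.03, survival 1 and 0 of 10 at 0.08, and regulatory genes 1 and 0 of 8 at 0.12. These counts lie near the background.

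Genes higher in the DEN-CDHFD WT cells were spread over many of them. Scin, an actin-severing protein, had 132 UMIs in 15 of 50 cells and 0 in young WT, at least 8.12-fold higher against a floor of 3 counts in the young library. Sox4, a developmental transcription factor, had 75 UMIs in 16 cells and 0 (at least 4.61-fold higher), and Icos, a costimulatory receptor known from T cells, 51 in 23 cells and 0 (at least 3.14-fold). Stat4, which transmits interleukin 12 signals, had 173 UMIs in 28 cells and 1, a log2 ratio of 4.42 (2.50 to 10.31). Gclc, which begins glutathione synthesis, had 389 in 32 cells and 3 (4.36, 3.02 to 6.86). Slc4a8, a bicarbonate transporter, Stmn1, which destabilises microtubules, Rab20, a vesicle GTPase, and Hp1bp3, a chromatin protein, followed at 3.64, 3.38, 3.01 and 2.95, each with 1 or 2 UMIs in young WT. Of these, Stmn1 was at -0.29 with cells holding UMIs of other lineages left out (4 UMIs and 1) and Rab20 at 0 after thinning (7 and 1). The granzyme gene Gzma also ranked here, but its 96 UMIs lay in 1 cell, and without it both libraries were at 0.

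Genes lower in DEN-CDHFD WT rested on few young cells. In 10 of the 10 with the most negative ratio, 1 young cell held over 90% of the UMIs: 1 cell accounted for Fcna, Slc40a1, Folr2, Clec4f, Vsig4, Cd5l, Hpgd, Mrc1 and Apoc1, genes of Kupffer cells and other macrophages, and another for Iigp1, an interferon-induced GTPase. The first of these cells had 20638 UMIs and 4845 genes, 11 UMIs of Ccr7, 19 of Fscn1 and 772 of the macrophage list. That list was lower in 7 of 7 counted genes at a median of -4.17, with 99.7% of its young UMIs in that cell. Left out together with the other 5 cells that held over 90% of a named gene, 1 gene of the list was counted and it was higher, at 4.49. Almost no young UMIs of the list are left there, so the size of this value rests on the prior.

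The cDC1 list was lower in DEN-CDHFD WT, with 5 of 6 counted genes lower, 0 higher and a median of -1.49 beside 0.09 for all genes. Clec9a was at 143 CPM in young WT and 50.7 in WT, Cadm1, an adhesion molecule of cDC1, at 187 and 67.9, and Wdfy4, needed for cross-presentation, at 275 and 77.1. The young values rest on few cells: 1 cell held 36.9% of the list's young UMIs, and without the cells that held over 90% of a named gene 1 of 5 was lower at a median of -0.70. Over cells thinned to 3000 UMIs and summed, 2 genes were counted, 1 higher and 0 lower.

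Interferon genes were lower in 6 of 11 at a median of -1.42. Irf7, a factor that amplifies type I interferon, was at 500.1 CPM in young WT and 89.2 in WT, and Isg15 at 495 and 172. Here too 1 young cell held 43.2% of the list, and without the cells that held over 90% of a named gene 5 of 10 were lower at -1.23. The list was weaker under other settings, with 1 of 5 lower at -0.66 after thinning, 5 of 11 at -0.66 with at least 6 UMIs of Fscn1 and Ccl22, and 3 lower and 1 higher of 8 at -0.87 with cells holding UMIs of other lineages left out. The chemokine Cxcl9, a ligand of Cxcr3 induced by interferon gamma, was at 791 CPM (4 of 10 cells, 62.5% of UMIs in 1) and 71.0. Tnf was at 319 and 52.7 CPM and Cd86 at 434 and 151, log2 ratios of -2.59 and -1.53, with 53.4% and 51.9% of the young UMIs in 1 cell.

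The comparison of DEN-CDHFD miR-146a-/- with DEN-CDHFD WT asks what the loss of miR-146a does in the treated liver. It shares the WT library with the comparison to young WT. Of 2942 genes, 109 were at least 2-fold higher (3.7%) and 136 lower (4.62%), with a median of 0.00. The balance here also depends on the settings, at 108 higher and 89 lower with a prior of 5 counts, 29 and 20 at 200 CPM, 45 and 90 after thinning, and 116 and 258 with cells holding UMIs of other lineages left out. In the cell cycle list the 2 counted genes, Pclaf and Stmn1, were lower, at a median of -2.31. That list had 2 of 2 higher at 3.05 in WT over young WT and 2 of 3 higher at 1.84 in DKO over miR-146a-/-. These values rest on few cells: Stmn1 had 84 UMIs in 12 WT cells, 10 in 4 miR-146a-/- cells and 46 in 6 DKO cells. Of the DKO UMIs 52.2% lay in 1 cell. With cells holding UMIs of other lineages left out, 4 Stmn1 UMIs remained in WT. In the immediate early and stress list 10 of 12 genes were lower and 0 higher at a median of -1.73. Fos, a subunit of the transcription factor AP-1, was at 812 CPM in 42 of 50 WT cells and 36.1 in 7 of 26 miR-146a-/- cells (log2 ratio -4.46, -5.21 to -3.86). Atf3, a stress-induced factor, was at 368 and 48.7 CPM (-2.89), Jun at 330 and 77.6 (-2.07), and Dusp1, a phosphatase that ends MAP kinase signalling, at 1073 and 375 (-1.51). Egr1 was at 62.9 and 1.80 CPM with 85.5% of its WT UMIs in 1 cell (-4.55, and -1.86 without that cell), whereas Junb was at 1291 and 910 (-0.50) and Hsp90aa1 at 357 and 354 (-0.01). The list's median ranged from -1.83 to -1.51 over the alternative scalings, filters and cell sets.

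Other populations of the same libraries moved with this list. Its summed level was 6435, 5509, 2191 and 3348 CPM in mature cells of young WT, WT, miR-146a-/- and DKO, 9485, 8979, 3835 and 4054 in cDC1, 14420, 12220, 4995 and 5593 in cDC2, and 6901, 5324, 2689 and 3013 in B cells. By these sums miR-146a-/- was lowest in all 4 populations, then DKO, then WT, and young WT was highest. In mature cells 1 young cell held 26.7% of the list's young UMIs. By gene the median log2 ratio of WT to young WT there was 0.16, with 2 of 12 higher and 2 lower. All 12 genes were detected in mature cells, with Junb the most abundant. The part that this shared pattern has in the values of mature cells was not tested.

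**Figure D4:**
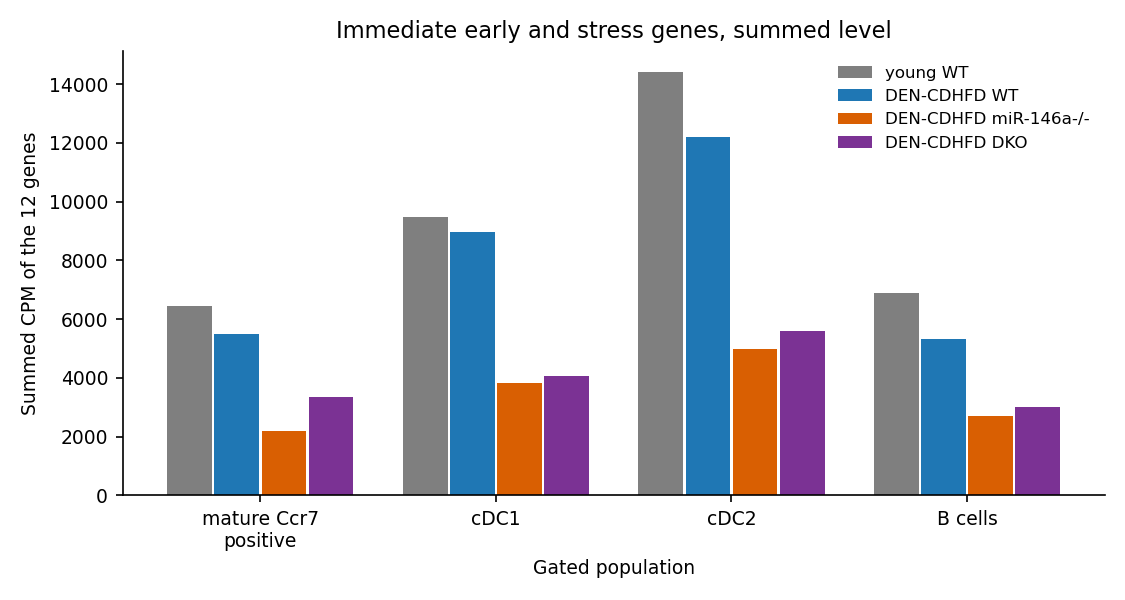
Summed level of the 12 immediate early and stress genes in CPM in mature Ccr7 positive cells, cDC1, cDC2 and B cells, with a bar per library. In each population the miR-146a-/- library is lowest (2191 CPM in mature cells) and young WT highest (6435).

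NF-kB genes, the branch that miR-146a is known to restrain, were close between the libraries: 1 of 18 was higher and 0 lower, at a median of 0.11. The exception was Cd40, at 226 CPM in WT and 549 in miR-146a-/- (log2 ratio 1.28, 1.02 to 1.53). Of the reported miR-146a targets, 7 were counted and 1 was lower, Ccl5, with 0 higher and a median of -0.15. Traf6, with 4 seed matches, was at 60.5, 93.3, 50.5 and 58.2 CPM in young WT, WT, miR-146a-/- and DKO (miR-146a-/- over WT -0.87, -1.55 to -0.26), Irak1 at 38.5, 67.9, 68.6 and 68.4 (0.02) and Irak2 at 143, 71.0, 95.6 and 84.4 (0.43). The 3 adaptors thus showed no common direction between miR-146a-/- and WT.

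Chemokine ligands were lower in 4 of 9 and higher in 1 in miR-146a-/-, at a median of -0.84. Ccl5 was at 3204 CPM in WT and 999.7 in miR-146a-/- (-1.68, -1.81 to -1.55). It was detected in 41 of 50 and 16 of 26 cells, and its share at 3000 UMIs per cell was 64.0% (49.2 to 77.1%) and 38.5% (20.2 to 59.4%), against 18.9% and 6.80% of B cells (82.0 and 61.5% against 36.2 and 16.8% unthinned). B cells of the 2 libraries had 204 and 99.7 CPM, cDC1 160 and 28.9 and cDC2 59.6 and 43.4, so the lower level is not particular to mature cells. In mature cells 1 cell held 28.3% of the WT Ccl5 UMIs and 1 cell 36.8% of those in miR-146a-/-. Ccl4, another inflammatory chemokine, was at 307 and 55.9 CPM, with 71.3% of the WT UMIs in 1 cell, and Cxcl10 at 68.9 and 1.80 with 77.9% in 1 cell (-4.68, and -2.56 without it). With cells holding UMIs of other lineages left out Cxcl10 was at -0.74, below 2-fold (4 UMIs in WT and 1 in miR-146a-/-). The gene on the higher side, Ccl24, had 172 UMIs in 1 miR-146a-/- cell and 0 in WT. Among chemokine receptors 3 of 5 were lower: Ccr2, at 57.8 and 12.6 CPM, Cxcr4, at 62.9 and 25.3, and Ccrl2, a chemerin-binding receptor, at 121 and 18.1.

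**Figure D5:**
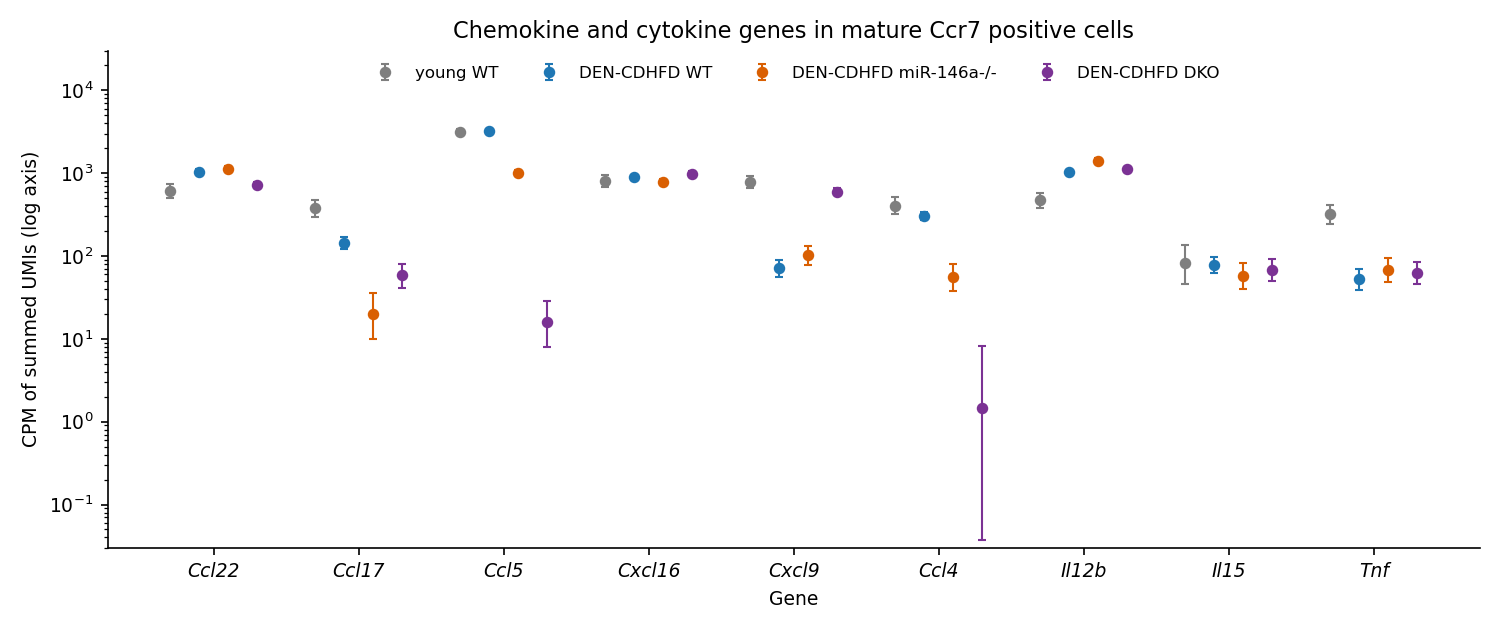
Summed level in CPM (log axis) of 9 chemokine and cytokine genes in mature Ccr7 positive cells of the 4 libraries, with exact 95% Poisson intervals that cover counting error only. Cxcl16 lies between 783 and 975 CPM, while Ccl5 goes from 3204 in DEN-CDHFD WT to 16.0 in DKO.

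Genes of the cDC1 lineage were higher in miR-146a-/- in 2 of 5 and lower in 0, at a median of 0.80. Cadm1 was at 67.9 CPM in WT and 197 in miR-146a-/- (1.53), and Wdfy4 at 77.1 and 285 (1.88). Over cells thinned to 3000 UMIs only 2 of the list were counted, with 0 past 2-fold and a median of -0.39. Class I genes had 0 of 14 on either side at a median of -0.34, with B2m, their shared light chain, at 4259 and 2685 CPM (-0.67), and class II 0 higher and 1 lower (Cd1d1) of 13 at 0.00. Survival genes were higher in 2 of 11 and lower in 0: Bcl2l11, encoding the cell death protein Bim, at 86.2 and 197 CPM (1.19), and Bcl2l1, encoding Bcl-xL, at 34.5 and 117 (1.76), with 53.8% of its miR-146a-/- UMIs in 1 cell. Regulatory genes were higher in 2 of 10 and lower in 1 (Socs1), at a median of 0.15. Of the higher ones Aldh1a2, which makes retinoic acid, was at 33.5 and 99.3 CPM (1.56), 45.5% in 1 cell, and Ebi3, a chain of interleukins 27 and 35, at 18.3 and 59.6 (1.69). Anxa3 was at 592 and 227 CPM (-1.38), and Adam23, an integrin-binding protein, at 136 and 21.7 (-2.60).

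Among the genes of largest difference, Sox4 had 75 UMIs in 16 WT cells and 0 in miR-146a-/-, at least 14.1-fold lower against the floor of 3 counts. Pygl, which breaks down glycogen, had 64 UMIs in 24 WT cells and 1 (log2 ratio -4.60, -10.49 to -2.64), and Tsc22d3, a glucocorticoid-induced gene, 68 in 32 cells and 3 (-3.46, -5.98 to -2.06). Cd69, an early activation receptor, had 63 and 2 UMIs (-3.84), Dscaml1, a cell adhesion molecule, 52 and 1 (-4.30), and the uncharacterised gene Gm13546 62 and 2 (-3.81). On the higher side Ppt1, a lysosomal thioesterase, had 40 UMIs in WT and 117 in miR-146a-/- (2.37, 1.85 to 2.94), Ifi205 27 and 77 (2.33), Odc1, which starts polyamine synthesis, 61 and 172 (2.32) and the macrophage gene Ms4a7 35 and 92 (2.21), the last pair with 48.3 and 51.1% of UMIs in 1 cell. With cells holding UMIs of other lineages left out, Odc1 was at 0.58, below 2-fold (17 UMIs in WT and 14 in miR-146a-/-). Ifi205 belongs to the interferon list, in which 2 of 10 genes were higher and 1 lower, at a median of -0.135. The 6 genes ranked above Ppt1 each had over 90% of UMIs in 1 cell: Ccl24, Mgl2, Clec4e, Hmox1, Ube2c and Clec4n. With that cell out, Clec4e, Hmox1, Ube2c and Clec4n were at -1.41, -1.65, -1.16 and -0.68, and Ccl24 and Mgl2 had 0 UMIs left in both libraries. Gzma ranked first on the lower side for the same reason, its 96 UMIs lying in 1 WT cell.

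The comparison of DEN-CDHFD DKO with DEN-CDHFD miR-146a-/- asks what the added loss of Ccl5 does. It shares the miR-146a-/- library with the preceding comparison, so the 2 are not independent and a gene low in that library appears in both. Of 2874 genes, 111 were at least 2-fold higher in DKO (3.86%) and 103 lower (3.58%), at a median of -0.07. This balance also depends on the settings. It was 76 higher and 80 lower with a prior of 5 counts, 15 and 24 at 200 CPM, and 90 and 102 with no upper limit on genes. Against these, it was 749 and 538 at 10 CPM with no UMI minimum, 53 and 35 after thinning, and 142 and 122 with cells holding UMIs of other lineages left out. NF-kB genes were past 2-fold in 0 of 18, cytokines in 0 of 8 and the cDC1 list in 0 of 5, with medians of -0.14, -0.12 and -0.31.

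Immediate early and stress genes were higher in 5 of 10 and lower in 0, at a median of 0.92. Fos was at 36.1 CPM in miR-146a-/- and 141 in DKO (1.94), Jun at 77.6 and 300 (1.94) and Dusp1 at 375 and 797 (1.08), while Ier2 and Atf3 were at 1.02 and 1.20. In the other populations the list's sum was 3835 and 4054 CPM in cDC1, 4995 and 5593 in cDC2 and 2689 and 3013 in B cells, smaller steps than the 2191 and 3348 of mature cells. Without the cells that held over 90% of a named gene, 3 of 10 were higher at a median of 0.69, and over all alternatives the median ranged from 0.58 to 1.09.

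Class II had 2 of 13 higher and 0 lower at a median of 0.32, and class I 1 of 14 (H2-T22) and 0 at 0.26, a share near the background. With cells holding UMIs of other lineages left out, class I had 0 of 14 past 2-fold at a median of -0.03 and class II 3 of 13 at 0.42. H2-DMb2, the other chain of H2-M, was at 126 CPM in miR-146a-/- and 397 in DKO (1.65, 1.27 to 2.05), and H2-Oa, a chain of the H2-O complex that holds H2-M back, at 121 and 313 (1.36, 0.97 to 1.79). Pdcd1lg2 (PD-L2), 1 of 8 costimulation genes past 2-fold, was at 23.5 and 78.5 CPM (1.70, 0.85 to 2.74), with 40.7% of the DKO UMIs in 1 cell. Cd274 was at 220.2 and 407 (0.88, 0.58 to 1.21).

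Chemokine ligands went both ways, 2 of 7 higher and 3 lower at a median of -0.65, and with cells holding UMIs of other lineages left out 3 of 6 were higher and 1 lower at 0.99. Besides Ccl5 itself, Ccl4 had 31 UMIs in miR-146a-/- and 1 in DKO (-4.70, -10.61 to -2.68), and Ccl24 had 172, in 1 cell, and 0. Cxcl9 was at 103 CPM in 8 of 26 cells and 596 in 12 of 38 (2.53, 2.13 to 2.96), with 43.2% of the DKO UMIs in 1 cell, and Ccl17 at 19.9 and 58.2. Among interferon genes Gbp2 was higher (128 and 303 CPM, 1.23) and Irf7 (59.6 and 24.7, -1.25) and Oasl1 (110.1 and 53.8, -1.02) lower, of 11. Anxa3 and Adam23 stood at 467 and 125 CPM in DKO (1.03 and 2.48), near their WT levels of 592 and 136.

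The genes of largest difference were again partly those of few cells. Tsc22d3 had 3 and 44 UMIs (3.36, 1.92 to 5.90), the latter in 17 of 38 cells, Gm4316 4 and 105 in 21 cells (4.24), Siglecg, an inhibitory sialic acid receptor, 5 and 49 in 16 cells (2.86), and Jaml, an adhesion molecule, 4 and 35 in 14 cells (2.67). Gm42031 had 41 UMIs in 14 of 26 cells and 313 in 36 of 38 (2.61, 2.15 to 3.13), and it was higher in DKO in the other populations too: 101 and 415 CPM in cDC1, 94.3 and 459 in cDC2 and 161 and 399 in B cells. Gm4316 (19.6 and 44.0, 59.2 and 130.1, 34.5 and 67.9 CPM) and Camk2b (9.28 and 30.1, 11.01 and 46.8, 93.0 and 263 CPM) were likewise higher in all 3, so these genes are not particular to mature cells. Camk2b, a calmodulin-dependent kinase, Dpp10, a potassium channel subunit, and the noncoding Mir99ahg followed with 50, 67 and 45 DKO UMIs in 15, 12 and 8 cells. The histone gene Hist1h2ae was at 4.42 with 84.9% of its DKO UMIs in 1 cell and 1.77 without it, and Ptgs2, which makes prostaglandins, at 3.21 and, without its top cell, 1.69. With cells holding UMIs of other lineages left out Ptgs2 was at 0.11 (3 UMIs in miR-146a-/- and 6 in DKO). On the lower side Odc1 had 172 and 23 UMIs (-3.19), Plac8 167 and 24 (-3.08) and Pdzk1ip1 50 and 6 (-3.27). For Odc1, 1 cell held 48.3% of the miR-146a-/- UMIs. With cells holding UMIs of other lineages left out it was at -0.99, just short of 2-fold (14 and 12 UMIs). The stress-response gene Nupr1 was at -2.61 and, without 1 cell, -0.79, and Clec4e, Hmox1 and Ube2c were those of single miR-146a-/- cells.

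Markers of other lineages were counted in the same 124 cells. The macrophage list had UMIs of 10 of 10 genes, C1qb the most abundant, at 4253, 207, 128 and 114 CPM by library, and monocyte genes 9 of 9, Lyz2 the most abundant, at 1083, 771, 446 and 239. T cell genes had 7 of 10, Cd8a the most abundant, at 242, 67.9, 19.9 and 18.9, with Cd3d, Cd3e and Cd3g at 0 by the rule. B cell genes had 5 of 8, Ighm first, at 110, 116, 75.8 and 98.9, with Pax5 and, by the rule, Cd79a among those at 0, against 9741 to 13220 in B cells. Natural killer and innate lymphoid genes had 9 of 10, Il7r first and Eomes at 0, at 236, 407, 155 and 183, and plasmacytoid genes 5 of 7, Bst2 first, Klk1 and, by the rule, Siglech at 0, at 247, 298, 224 and 246. Neutrophil genes (5 of 8, Csf3r first, Retnlg, Ly6g and Camp at 0) were at 0, 6.08, 28.9 and 10.2 CPM, plasma cell genes at 71.4, 54.8, 74.0 and 75.6, hepatocyte and endothelial genes at 165, 60.8, 66.8 and 62.5, and basophil and mast cell genes at 1 UMI in all. Macrophage, monocyte and T cell markers were thus highest in young WT, where a single cell held 99.7, 86.8 and 70.5% of the list's UMIs in turn. With cells holding UMIs of other lineages left out, 57 of the 124 cells remained, 6, 19, 11 and 21 by library. Values without single cells, and with cells holding UMIs of other lineages left out, are given with some of the results, and the part of these markers in the other differences between libraries was not tested.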

How the data were processed

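The authors sorted CD45+ liver cells, made 10x Genomics 5' v2 libraries and, per the labels, processed them with Cell Ranger 7.0.1 on mm10. The deposited values are raw counts (UMIs) of 32285 gene rows per cell. Symbols were taken as deposited, and members chosen by the limits stated. The members and gene lists were chosen with earlier results of these data known. UMIs of the members were summed per library and scaled to CPM. Log2 ratios used a prior of 0.5 counts, with exact conditional binomial intervals, Poisson intervals for levels, and Clopper-Pearson or Newcombe intervals for shares. Mitochondrial genes, ribosomal protein genes and the V, D and J segment genes of antigen receptors were not counted, while constant genes such as Ighm were. Named genes were the rule genes, those of the lists, the 10 largest and 10 smallest ratios to cDC1 and cDC2, and the 10 largest rises and falls per comparison. Scripts were tested on simulated data. Alternatives were TMM factors (edgeR 4.0.16, R 4.3.3), thinning to 3000 UMIs, another prior, other expression limits and other cell limits. Cells holding UMIs of other lineages were members with any UMI of Trac, Trbc1, Trbc2, Nkg7, Ms4a1, Igkc, S100a8, S100a9, C1qa, C1qb or C1qc. Such a UMI can also come from free RNA, so these cells need not be of another lineage. Python 3.11.15, numpy 2.4.6, scipy 1.17.1 and pandas 2.3.3 were used.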

Additional observations from a re-analysis of the deposited data

How the results depend on the processing

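The WT and young WT shares differed by 0.331 points with Fscn1 and Ccl22 both required and 0.720 without the Cd3 and Cd79a limits. They differed by 0.170 with cells holding UMIs of other lineages left out (below, other lineages left out) and 17.4 among gated dendritic cells. Between miR-146a-/- and WT the difference was -8.21 among gated dendritic cells. It was -0.0875 with other lineages left out and -0.155 after thinning, with intervals that hold 0. DKO against miR-146a-/- turned to -0.0472 without the Cd3 and Cd79a limits and -1.58 among gated dendritic cells. Of 27 such differences 20 stayed within the interval and 2 reversed, a tally that is no measure of robustness. Differences among gated dendritic cells have another denominator but were judged by the interval of the share of kept cells. A limit of 10% mitochondrial UMIs left the members unchanged. Genes past 2-fold (277, 245 and 214 for WT over young WT, miR-146a-/- over WT and DKO over miR-146a-/-) became 176, 135 and 88 after thinning, where fewer are counted, 2276, 1330 and 1287 at 10 CPM with no UMI minimum, and 63, 49 and 39 at 200 CPM. With other lineages left out the first 2 were 540 and 374, and with a prior of 5 the first was 159 (36 higher, 123 lower, against 186 and 91). TMM gave 294, 249 and 213. Of 539 named-gene ratios 393 stayed within their interval and 15 reversed. This tally is no measure of robustness either: having no upper limit on genes changed no member of young WT or WT, so their ratios could not move. For WT over young WT, Gzma was at -1.88, Stmn1 at -0.29 and Apoc1 at 1.58 with other lineages left out, and Gzma at -2.84 without cells holding over 90% of a named gene, an alternative chosen after seeing the data. For miR-146a-/- over WT, that alternative gave Clec4e -1.21, Hmox1 -1.75, Ube2c -1.01, Clec4n -1.70 and Gzma 1.11; at least 6 UMIs of Fscn1 and Ccl22 gave Clec4e -0.80 and Hmox1 -0.39; Gzma was at 0.85 with other lineages left out and 0.15 with no upper limit on genes. For DKO over miR-146a-/-, Hmox1 was at 0.80 with other lineages left out and Ube2c at 0.60 without those cells. Gzma had 0 UMIs on both sides where it is at -1.88, -2.84, 0.85 and 1.11, so these come from the prior alone, and Stmn1 rests on 4 UMIs and 1. Most of the other reversals rest on few UMIs as well. These were 5 and 0 for Apoc1, 0 and 2 or 0 and 1 for Clec4e, 1 and 10 for Clec4n, and 1 and 6 or 3 and 1 for Ube2c. Hmox1 had 4 and 32, 5 and 12 or 4 and 1, and Gzma 63 and 96 where it is at 0.15. The cause of the other changes was not tested. With 10 young cells, a gene at 0 UMIs there may lie anywhere below 16.5 CPM, against 3.04 in WT. No paired analysis was possible because each group has 1 library.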
